A study of Mus musculus with 4 samples.

Results

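The mammary tumors of mice that lacked Sca-1 were compared with those of wild-type littermates, as 1 microarray of each, across all genes that a probe set names. The 2 tumor arrays are part of a set of 4 arrays, in which the other 2 hold mammary gland of 6-week-old mice of both genotypes. All mice were female, nulliparous and of the C57BL/6 background. The wild-type tumor group and the Sca-1 KO tumor group had both received 15 mg of MP (Depo-Provera, a long-acting progestin) under the skin and then DMBA, a carcinogen that the body converts into a DNA-damaging form, in 4 weekly doses of 1 mg by gavage. The labels attach the treatment protocol to all 4 groups, but the own labels of the gland groups name no carcinogen. They give no age for the tumor-bearing mice, no histology and no description of the knockout allele or of the cells in which Sca-1 is lost. Each array was hybridised with RNA pooled in equal amounts from 5 mice, so that the spread between mice was averaged within the pool and cannot be recovered. With 1 array per group no test was possible. No p-value is given, and every difference is a difference between 2 arrays.

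Of 12394 genes named on the array, 7296 could be compared because at least 1 of the 2 tumor signals reached the floor, a signal of 168, which is the median of all values on the 4 arrays. The other 5098 lay below the floor in both tumors. Differences are on the scale of log2(signal + 27.3), knockout minus wild type, where the offset keeps signals near background from giving very large ratios and understates the differences of dim genes. No fold is given where 1 of the signals is below the floor, because its size then depends on the offset. "Higher" and "lower" in a count mean at least 2-fold in the knockout tumor. Of the 7296 genes, 155 (2.12%) were higher and 142 (1.95%) were lower. In 78 of the higher genes the wild-type signal, and in 76 of the lower genes the knockout signal, was below the floor, so that these genes could enter the comparison only through the array on which they were bright. In the 6711 genes that were past the floor on both arrays, the counts were 77 higher (1.15%) and 66 lower (0.983%). Over all 12394 genes with no floor, 224 (1.81%) were higher and 223 (1.8%) lower, and the median difference was 0.005. Counts of gene groups are given over all of a group's measured genes, dim ones included, and are to be read against these shares. With the offset raised to the median of all values, 61 were higher and 78 lower. Some genes named below lost the 2-fold call under this or another setting. The value there is given beside only part of these genes, so its absence does not mean that the call held in every setting.

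Sca-1 is a small protein anchored in the outer face of the cell membrane, and it is widely used to sort stem and progenitor cells of the mouse mammary gland and of blood. The mammary epithelium has an inner luminal layer, which makes milk and carries keratins such as Krt8 and Krt18, and an outer myoepithelial layer, which contracts and carries Krt5 and Krt14. Mammary tumors can also hold areas of squamous epithelium, in which cells mature as in skin. There, basal cells divide, suprabasal cells switch to other keratins, and the uppermost cells crosslink precursor proteins into a cornified envelope and are shed. Division itself needs the copying of DNA, the condensation of chromosomes and their separation on the spindle, and the genes for these steps are switched on together in each cell cycle.

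The labelled tissue was checked against markers of mammary epithelium. Epcam, an adhesion molecule of epithelial cells, had a wild-type signal of 6279 and a knockout signal of 7335, and Cdh1, the cadherin that joins epithelial cells, 4156 and 4980. The luminal keratins Krt8 and Krt18 and the basal keratins Krt5 and Krt14 were bright on both arrays, and Elf5, a regulator of milk-secreting luminal cells, had signals of 2325 and 3283. Both arrays thus carried luminal and basal markers, all within 2-fold. Esr1, the oestrogen receptor, had signals of 6.1 and 18.2, and Pgr, the progesterone receptor, 18.8 and 46.2, which are below the floor on both arrays. The annotation names the Sca-1 gene for no probe set, so the genotype labels were not checked by its level. In the pairs of signals that follow, the wild-type tumor comes first.

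The 2 arrays were close in their technical measures. Median signals were 150.8 (wild type) and 153.4 (knockout), and 3′ over 5′ control ratios, which reflect RNA integrity, were 1.23 and 1.29 for beta-actin and 0.768 and 0.876 for Gapdh. Of the genes compared, 88.0% lay within 1.5-fold, and the central 95% of differences ran from -0.88 to 0.93. Subunits of the respiratory chain, the cytosolic ribosome and the proteasome, which most cells need, gave a ruler of their own. All 129 of these genes that could be compared lay within 2-fold, from -0.52 for the ribosomal protein gene Rps25 to 0.58 for Psmb9, an inducible proteasome subunit, with an SD over genes of 0.17. In 2336 genes with 2 probe sets above the floor, the SD for a single probe set was 0.22. This is smaller than the SD of the gap between the 2 probe sets. Where the first of them was past 2-fold (63 genes) the other had the same sign in 62 genes and was itself past 2-fold in 35. These gauges cover measurement noise and not differences between mice. The plot of signals in the 2 tumors shows how the groups described next lie relative to this ruler.

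**Figure D1:**
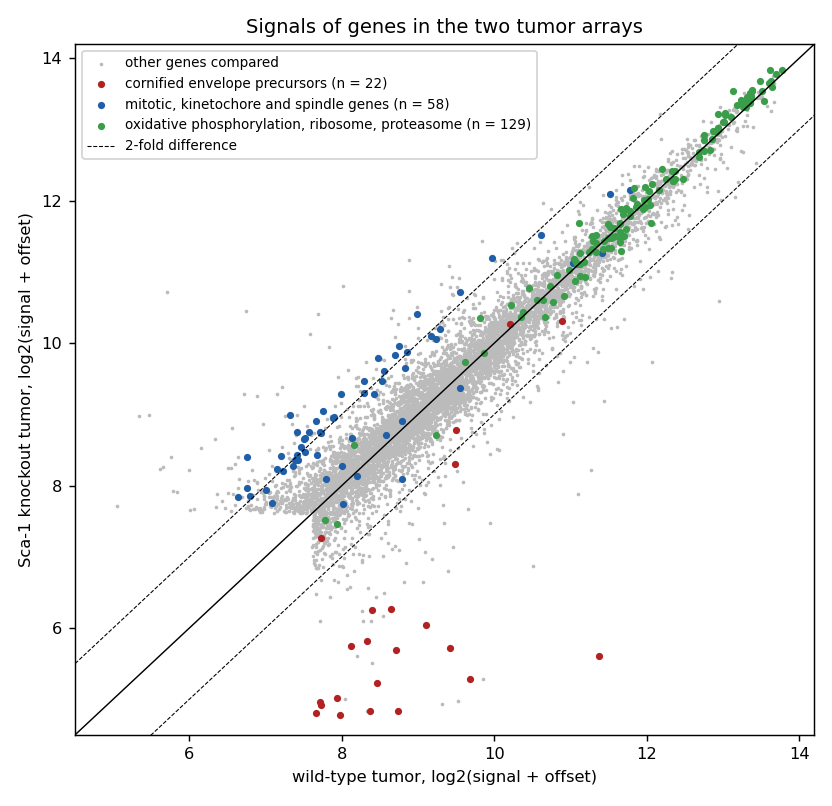
Each point is 1 of the 7296 genes compared, with its value in the wild-type tumor on the x axis and in the Sca-1 knockout tumor on the y axis, both as log2(signal + 27.3), 1 pooled array each. The solid line marks equal values and the dashed lines a 2-fold difference. Cornified envelope precursors (red) lie below the solid line or close to it, mitotic and kinetochore genes (blue) mostly above it, and the 129 ruler genes (green) between the dashed lines.

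Many genes of squamous maturation were lower in the knockout tumor, above all the cornified envelope precursors. Layers were not measured in this pooled tissue, so a layer named below is only where such genes are known to be made. Cornified envelope precursors are the proteins that a dying keratinocyte crosslinks into its shell. Of 32 measured, 22 were lower and none was higher in the knockout tumor, with a median of -2.37 over all 32, the lowest of the 72 lists examined. Of the 22 that reached the floor, 18 were lower, and in 17 of them the knockout signal was below the floor. Lor (loricrin), the main protein of the envelope, had signals of 392 and 24.5. Flg (filaggrin), which bundles keratin filaments in the granular layer, had 217 and 5. The knockout values of both were at background. Crct1, a cysteine-rich late envelope protein, had signals of 522 and 38.8, and Tchh (trichohyalin), which hardens the inner root sheath of hair and some stratified epithelia, 294 and 28.9. Others among the 15 largest decreases of all genes were Calm4, a calmodulin of skin (2625 and 21.3), and the late envelope proteins Lce1f (398 and 1.3), Lce1a1 (325 and 10.2), Sprr1b (304 and 1.2) and Hrnr (224 and 0.1). Of the 4 precursors with both signals above the floor, a condition that leaves out genes with a large decrease, 1 was lower. Ppl (periplakin), which links the envelope to keratin filaments early in its assembly, had signals of 691 and 290 (2.27-fold lower). Sprr1a, a small proline-rich crosslinking protein that is also made under stress, had 694 and 411, a difference of -0.72 and within 2-fold.

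Promoters of these precursors were searched because many of the genes were lower in the knockout tumor. Measured precursors that were not lower are included, so the shares describe the list and not the difference between the tumors. Of 30 RefSeq promoters of 27 precursor genes (250 bases before to 50 after the start site, GRCm38.p6), 43.3% held the letters TATAAA (the TATA motif), against 9.81% of 12567 promoters of all named genes searched in the same way. TGANTCA, the site that AP-1 factors recognise, was in 46.7%, against 6.45% of all. Both stood together in 10 of the 30 (33.3%), against 1.12% of all. Motifs were searched on both strands, and a match is a description of the letters only. The promoters of Rptn (repetin, 793 and 11.6) and Krtdap (a secreted keratinocyte protein, 654 and 25.5) are those with both motifs and the largest differences. The other probe sets of Rptn were at background on both arrays, so its value rests on a single probe set. The Rptn promoter is chr3:93393449-93393748 on the plus strand, and that of Krtdap is chr7:30787655-30787954 on the plus strand. Capitals mark the TGANTCA match, at -96 and -81, and the TATAAA match, at -31 and -30, each counted from the start site to the first base of the match.
Rptn: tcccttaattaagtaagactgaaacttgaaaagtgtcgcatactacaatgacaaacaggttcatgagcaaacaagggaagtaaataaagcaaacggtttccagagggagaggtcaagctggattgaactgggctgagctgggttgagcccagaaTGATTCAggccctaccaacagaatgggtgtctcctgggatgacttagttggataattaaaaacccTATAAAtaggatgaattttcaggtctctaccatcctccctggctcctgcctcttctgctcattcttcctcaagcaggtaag
Krtdap: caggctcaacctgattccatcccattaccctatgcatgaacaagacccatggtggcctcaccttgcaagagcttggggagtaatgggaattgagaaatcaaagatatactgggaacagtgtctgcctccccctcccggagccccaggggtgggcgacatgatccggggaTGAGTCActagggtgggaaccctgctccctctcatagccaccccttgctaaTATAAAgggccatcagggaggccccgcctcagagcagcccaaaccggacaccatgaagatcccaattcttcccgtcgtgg

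Many of these genes lie side by side on chromosome 3, in the epidermal differentiation complex. From S100a10 to S100a13, an interval chosen after the values were seen, the annotation lists 100 genes, of which 39 were measured and 24 could be compared. Of these 24, 17 were lower and none was higher. Unlike the counts of groups, this one leaves out measured genes that reached the floor on neither array. Among the 17, only S100a8 had a knockout signal above the floor, so the others entered through the wild-type array alone. All but S100a8 and S100a9 are envelope precursors already counted above, so the interval adds little to that count. The 7 of the 24 within 2-fold were Sprr1a and 6 S100 genes for small calcium-binding proteins that are also made outside squamous epithelium. S100a6 had signals of 6995 and 7565, S100a10 had 5956 and 5278, and S100a16 had 5054 and 4338.

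The keratins, which form the filaments of each layer, differed among themselves. Among the 17 measured keratins of stratified epithelium 4 were lower and 1 was higher. The 4 were Krt1 and Krt10, the partners of suprabasal cells, and Krt6b and Krt16, which wounded or hyperproliferative epithelium makes. Krt10 had signals of 2447 and 272 (8.27-fold lower), both above the floor, and Krt16 had 647 and 84.2. Krt6a, a close relative of Krt6b whose probe sets may share its transcripts, had 1387 and 942 and was within 2-fold. The basal keratin Krt15 had signals of 7545 and 7308, and the luminal keratin Krt7 had 2804 and 3476. The myoepithelium also carries basal keratins, so basal cells of squamous areas cannot be told apart from it here. Krt17, a keratin of appendage and activated basal cells, went the other way at 702 and 1737 (2.42-fold higher), but its difference was 0.62 as the mean of its probe sets. None of the 5 measured keratins of simple epithelium was past 2-fold. The plot of epithelial genes, grouped by the layer in which they are known, shows both signals of each.

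**Figure D2:**
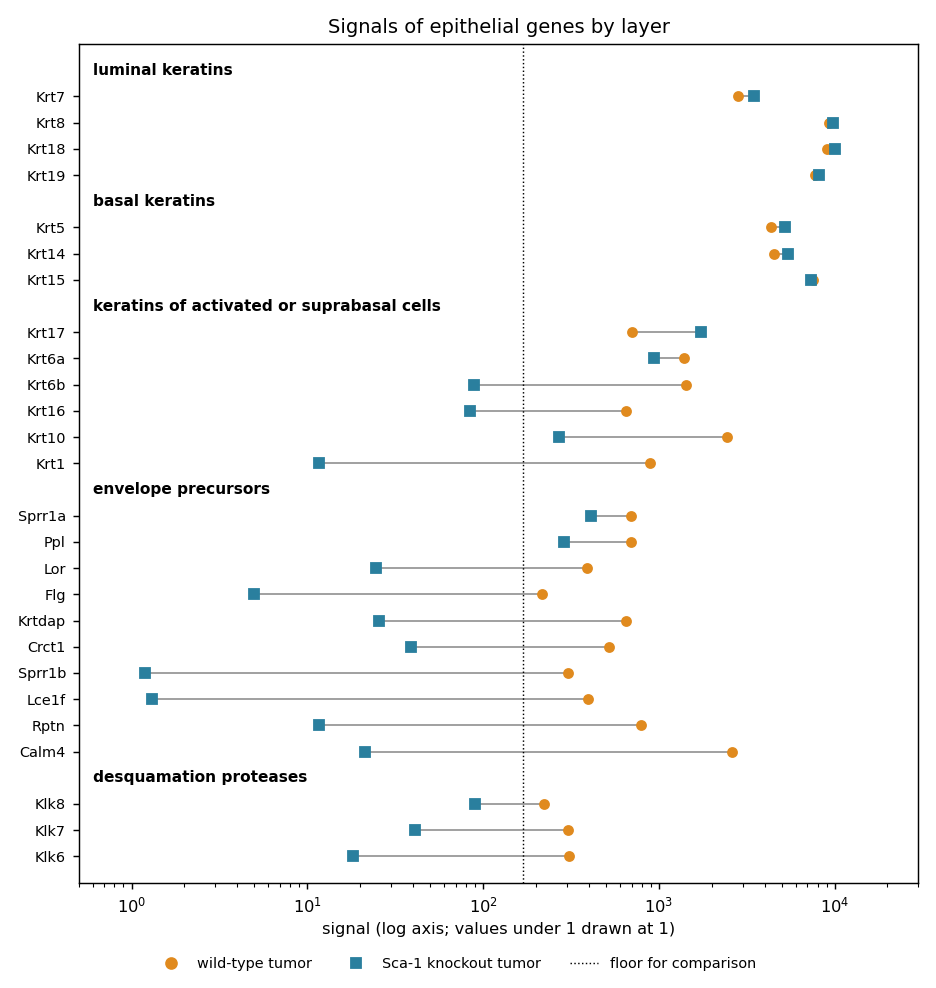
Signals of 26 epithelial genes in the wild-type tumor (orange circles) and the Sca-1 knockout tumor (blue squares), 1 pooled array each, on a log axis with values under 1 drawn at 1; the dotted line is the floor of 168. Luminal and basal keratins coincide (Krt15 at 7545 and 7308), while Krt1, Krt10, Krt16, Krt6b and most envelope precursors lie to the left in knockout.

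Enzymes that finish and shed the cornified layer followed the precursors in part. Of 20 measured, 5 were lower and none was higher, with a median of -0.22. Klk6 and Klk7, kallikreins that cut the links between shed cells, had signals of 308 and 18.2 and 305 and 41.0. Klk8, another kallikrein of skin, had 223 and 90, and the protease Asprv1, which processes filaggrin, 411 and 182 (-0.72 with the offset at the median). All but Asprv1 had a knockout signal below the floor. Cell junctions and regulators did not share this pattern. None of 11 measured desmosome genes and none of 19 measured transcription factors of squamous cells was past 2-fold. Trp63, the regulator that maintains stratified epithelium, had signals of 1678 and 1631, and Dsp (desmoplakin), which anchors keratin to desmosomes, had 3431 and 5286, a difference of 0.62.

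Genes of skin appendages were examined beside these differences, since skin lies next to the gland. Of 23 measured hair follicle genes 20 lay under the floor on both arrays, 1 was higher and 2 were lower, and their summed signals were 2232 and 1993. The 2 lower were Krt25 (293 and 1.1) and, below the floor on both arrays, Krt27 (142 and 1.9), which are keratins of the inner root sheath. None of 8 measured sebaceous gland genes was past 2-fold, their median was -0.43, and their summed signals were 10084 and 9436, most of it from Scd1 (6243 and 6112), a fatty acid desaturase that many tissues make. Whether skin taken with the tumor had a part in the squamous differences was not tested. Fewer cells of a type and less RNA in each such cell cannot be told apart in pooled tissue, here and in all groups that follow.

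Genes of cell division lay higher in the knockout tumor, with the largest medians for genes of mitosis. Of 32 measured mitotic kinases, cyclins and regulators, 12 were higher and none was lower, with a median of 0.91. Of 39 measured kinetochore, spindle and cytokinesis genes, 19 were higher and none was lower, with a median of 0.97. In the 38 genes of these lists with both signals above the floor, 17 (44.7%) were higher, against 1.15% of all such genes. Nusap1, which bundles spindle microtubules, had signals of 330 and 856, and Cep55, which completes the separation of daughter cells, 228 and 598. Cenpm, a kinetochore subunit, had 174 and 451. Birc5 (survivin), which corrects faulty attachments to the spindle, had 404 and 970. These 4 genes were above the floor on both arrays and each was over 2-fold higher in knockout. With the offset at the median of all values Cenpm, Cep55 and Birc5 were under 2-fold, at 0.85, 0.95 and 0.99.

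Genes of the earlier steps had smaller medians. Among 46 measured genes of replication origins and forks 5 were higher and none was lower, with a median of 0.56. Lig1, the ligase that joins newly made DNA fragments, had signals of 244 and 760 (2.90-fold higher). Mcm2 and Mcm3, parts of the replicative helicase, had 213 and 529 and 426 and 967, and the 3 probe sets of Mcm3 above the floor gave differences from 1.05 to 1.20. With the offset at the median of all values Mcm2 and Mcm3 were under 2-fold (0.87 and 0.93), and Mcm3 was at 0.82 as the mean of all its probe sets. Among 28 measured genes of chromosome condensation and histones 6 were higher and none was lower, with a median of 0.67. H2ax, the histone variant that marks broken DNA, had signals of 400 and 1201 (2.87-fold higher), and Uhrf1, which copies DNA methylation to new strands, 265 and 705. Of 28 measured repair and checkpoint genes 3 were higher, Rad51ap1, Ung and Trip13, with a median of 0.51, and all 3 were under 2-fold with the offset at the median.

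Genes that decide on entry into the cycle had few members past 2-fold. Of 30 measured G1 cyclins, E2F factors and inhibitors of cyclin-dependent kinases 2 were higher and none was lower, with a median of 0.42. Ccnd1 (cyclin D1), which drives entry in response to growth factors, had signals of 5543 and 5217. Its relative Ccnd2 had 672 and 1619 (2.35-fold higher, 0.93 as the mean of its probe sets). Mycl, a member of the Myc family, had 121 and 346, and Myc itself had 485 and 890, a difference of 0.84 and within 2-fold. None of 34 measured apoptosis genes was past 2-fold. Among 28 measured genes of p53 and its targets 3 were higher, and of these Fas, a death receptor, had signals of 61.5 and 178 while the other 2 (Bbc3 and Trp73) were below the floor on both arrays. Of the EGF ligands and ErbB receptors, growth signals of the mammary gland, 14 were measured and none was past 2-fold. Egfr had signals of 376 and 451, and Erbb2 had 250 and 267.

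Promoters of the mitotic and kinetochore genes were searched in the same way, whether or not the gene was higher, so these shares too describe the lists. Of 67 RefSeq promoters of 60 genes of these 2 lists, 74.6% held CCAAT, the site of the NF-Y factor, against 37.1% of all 12567, and 53.7% held TTTGAA, the core of the CHR element known from cell cycle promoters, against 12.9% of all. Both stood together in 31 of the 67 (46.3%), against 5% of all. TATAAA and TGANTCA were in 2.99% and 1.49% of the 67. The promoters of precursors held CCAAT in 26.7% and TTTGAA in 16.7%. Kif23 (80.4 and 311), a motor of the midzone of the spindle, and Racgap1 (188 and 500), its partner in cytokinesis, had the largest differences among compared genes with both motifs, and both were under 2-fold with the offset at the median (0.95 and 0.91). The Kif23 promoter is chr9:61946750-61947049 and the Racgap1 promoter chr15:99651607-99651906, both on the minus strand. Capitals mark CCAAT, which reads ATTGG here because the match is on the other strand, at -7 and -12, and TTTGAA, at 3 and 6, counted as before.
Kif23: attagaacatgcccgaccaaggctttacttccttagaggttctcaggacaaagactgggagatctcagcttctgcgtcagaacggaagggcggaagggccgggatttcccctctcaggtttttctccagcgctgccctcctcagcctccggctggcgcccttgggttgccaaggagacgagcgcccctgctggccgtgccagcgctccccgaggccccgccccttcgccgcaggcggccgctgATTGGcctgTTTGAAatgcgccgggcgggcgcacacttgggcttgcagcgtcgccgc
Racgap1: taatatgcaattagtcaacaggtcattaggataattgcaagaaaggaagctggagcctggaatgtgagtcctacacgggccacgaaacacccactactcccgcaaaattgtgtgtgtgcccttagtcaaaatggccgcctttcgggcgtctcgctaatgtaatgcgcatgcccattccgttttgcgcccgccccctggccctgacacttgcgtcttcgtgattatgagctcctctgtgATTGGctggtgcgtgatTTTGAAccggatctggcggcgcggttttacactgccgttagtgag

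The plot of differences by gene list sets the squamous and division genes beside the other lists.

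**Figure D3:**
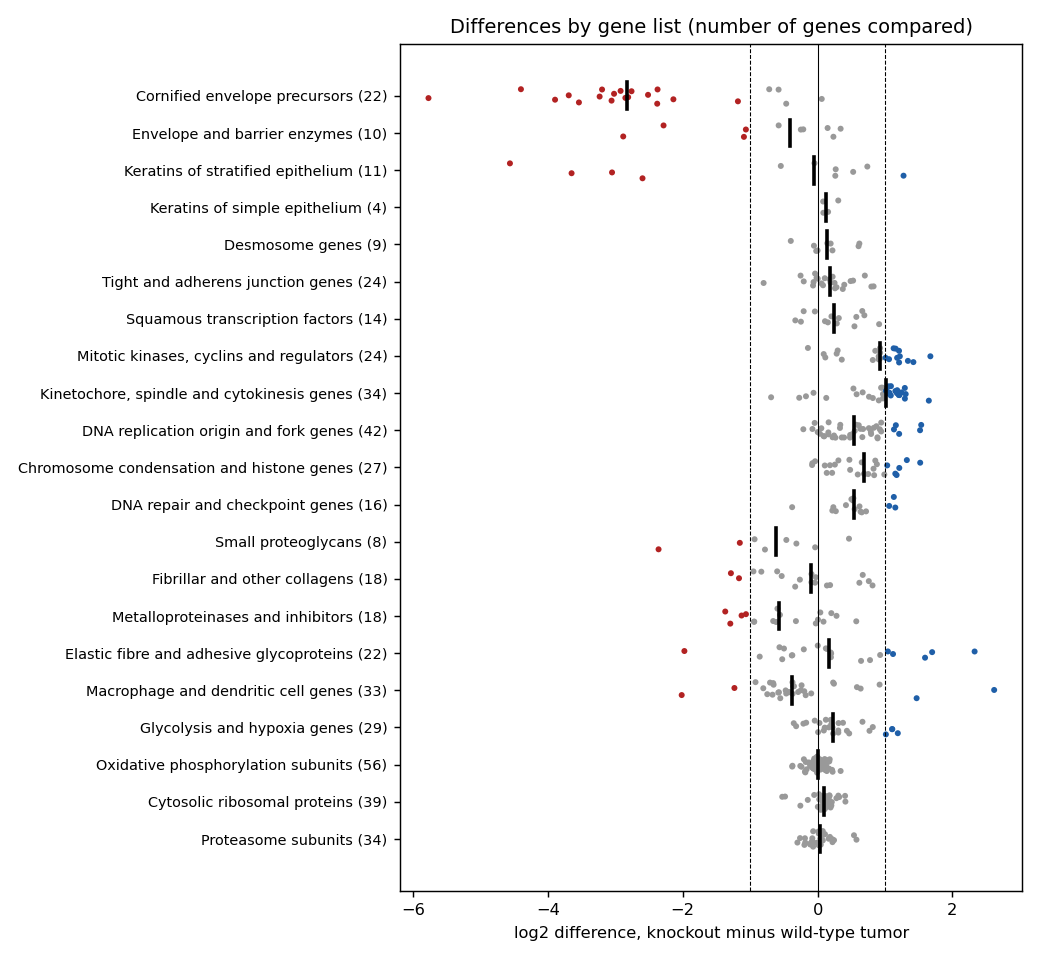
Each point is the log2 difference, knockout minus wild-type tumor, of 1 gene that reached the floor, in the list named at the left (number of genes compared in brackets); bars are list medians, dashed lines a 2-fold difference, blue and red points genes past it. Mitotic and kinetochore medians lie at 0.93 and 1.02, the envelope precursors at -2.83, most of them with a knockout signal below the floor, and oxidative phosphorylation subunits at 0.01.

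The matrix between the cells differed in its composition, with decreases and increases side by side. Small proteoglycans coat collagen fibrils and set their thickness. Of 13 measured, 3 were lower and none was higher, with a median of -0.46. Fmod (fibromodulin) had signals of 7849 and 1509 (5.13-fold lower), and its 6 probe sets gave differences from -3.13 to -2.36. Lum (lumican) had 1478 and 650 (2.22-fold lower). Dcn (decorin), bright on both arrays, had 9372 and 4894, a difference of -0.93 and within 2-fold, and Bgn (biglycan) had 6617 and 4792.

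Collagens differed by chain. Of 23 measured 2 were lower and none was higher, with a median of -0.05. Col6a1, a chain of the beaded filaments around cells, had signals of 1877 and 754 (2.44-fold lower). Col1a1, a chain of the main collagen of connective tissue, had 817 and 349 (2.24-fold lower). That difference was under 2-fold with a larger offset and as the mean of its probe sets, and Col1a2, whose product is built into the same fibres, had 5314 and 4426. Bmp1, the protease that trims procollagen, had 964 and 434, while Lox, the enzyme that crosslinks collagen and elastin, had 314 and 701 (2.14-fold higher). With the offset at the median Lox and Bmp1 were under 2-fold (0.85 and -0.91). In the basement membrane, the sheet under the epithelium, Col4a6 had 1142 and 556 (-0.86 with the offset at the median) and Lamb3, a chain of the laminin that holds basal cells, 673 and 1604 (2.33-fold higher).

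Adhesive glycoproteins of provisional and remodelling matrix held both higher and lower genes. Of 31 measured elastic fibre and adhesive glycoproteins 5 were higher and 2 were lower, with a median of 0.02. The 2 lower, Eln (777 and 177) and, below the floor on both arrays, Mfap4 (100 and 5.6), are components of elastic fibres. Postn (periostin), which binds collagen in healing and tumor stroma, had signals of 4572 and 9448 (2.06-fold higher, 0.93 with quantile normalization). Spon2, a secreted adhesion protein, had 53.2 and 377, and Efemp1, a fibulin, 104 and 259. The other 2 of the 5 were Fn1 (fibronectin, 889 and 2738, at 0.96 as the mean of its probe sets) and Tnc (tenascin C, 374 and 1275). Of 31 measured metalloproteinases and inhibitors 7 were lower and none was higher, 3 of them dim on both arrays. Timp3, an inhibitor of these proteases that binds to matrix, had 5920 and 3075, a difference of -0.94.

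Markers of fibroblasts, the main source of this matrix, were read beside these values. Of 20 measured 1 was lower, the membrane peptidase Dpep1 (361 and 119), and none was higher. Their summed signals were 18652 and 16517, and their median was -0.17. Of the 14 that reached the floor 10 were negative and 4 positive in sign, with a median of -0.36. Pdgfrb, a growth factor receptor of stromal cells, had signals of 844 and 635, and Thy1, a surface protein of fibroblasts, 578 and 716. Both were chosen after their values were seen. Vim, the filament protein of mesenchymal cells, had 11034 and 5874, a difference of -0.91. Of 20 measured factors of the epithelial-mesenchymal transition and mesenchymal genes 2 were higher and 1 was lower, with a median of -0.05. Zeb1, a factor that represses epithelial genes, had 488 and 125, while Foxc1, a factor of mesenchymal cells, had 275 and 615 (0.82 at the lowest over the settings tried), and Fn1 was also higher. Whether the number of stromal cells had a part in the matrix differences was not tested.

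Of the contractile genes of the myoepithelium, Myh11, Cnn1 and Mylk were lower and Actg2 was higher, while the keratins Krt5 and Krt14 lay within 2-fold. Of 25 measured basal and myoepithelial genes 4 were higher and 3 were lower, with a median of 0.17. Among the 4 higher only Actg2 is contractile, and the others were Krt17, Lamb3 and Lgr5. Myh11, the smooth muscle myosin heavy chain, had signals of 3095 and 1174 (2.60-fold lower), although as the mean of its probe sets the difference was -0.72. Cnn1 (calponin), which restrains the myosin motor, had 3936 and 1712 (2.28-fold lower), and Mylk, the kinase that switches it on, had 9069 and 4235 (2.13-fold lower), with -0.88 in another bright probe set, which stood for it when chosen over all 4 arrays. Myl9, another contractile gene, had 8492 and 5605, a difference of -0.60 and within 2-fold. Acta2, the smooth muscle actin used as the standard marker of myoepithelium, had 10326 and 10799. Actg2, another smooth muscle actin, had 614 and 1297 (2.07-fold higher). It was under 2-fold with the offset at the median (0.91) and with quantile normalization. The 3 lower genes are also made by smooth muscle of vessels and by myofibroblasts, so the cells they come from cannot be told apart here. The plot of matrix and contractile genes gives both signals for each.

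**Figure D4:**
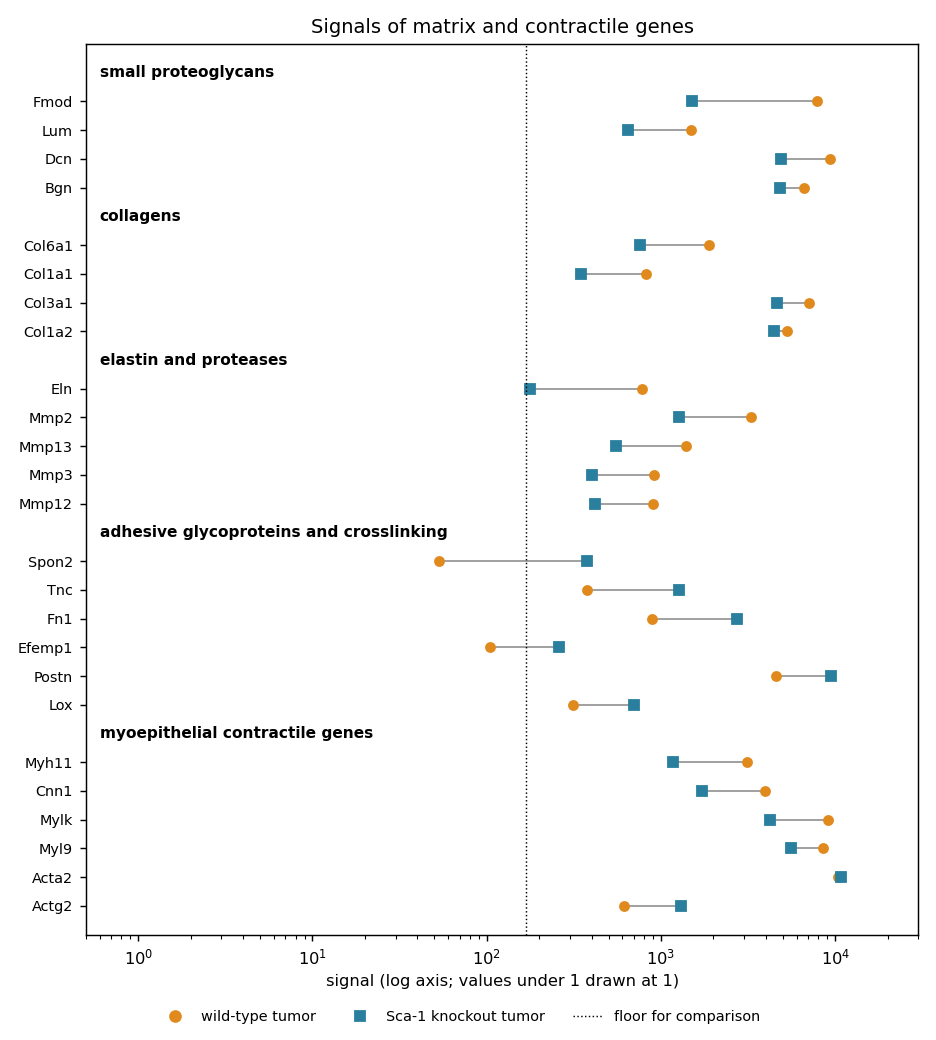
Signals of 25 matrix and contractile genes in the wild-type tumor (orange circles) and the Sca-1 knockout tumor (blue squares), 1 pooled array each, on a log axis; the dotted line is the floor of 168. Fmod lies at 7849 in wild type and 1509 in knockout, Postn at 4572 and 9448, and Acta2 at 10326 and 10799.

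Signals that act on mammary progenitors differed in single genes. Of 48 measured Wnt pathway genes 3 were higher and none was lower, with a median of 0.23. Lgr5, a receptor for R-spondins that marks stem cells of several epithelia and is itself a Wnt target, had signals of 97.6 and 438. Sostdc1, a secreted inhibitor of Wnt and BMP signals, had 716 and 1900 (2.59-fold higher), and its other probe set above the floor gave 1.37. Wnt10a, a ligand of epithelial appendages, had 86.4 and 205. None of 23 measured Notch pathway genes was past 2-fold. Of 27 measured mammary stem and progenitor markers 1 was higher, Lgr5 again, and the median was 0.17. Kit, a receptor of luminal progenitors, had 1953 and 3211, and Cd44, a surface marker used to sort tumor cells, had 3733 and 3671.

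Among 28 measured luminal regulators and genes of the hormone response 2 were higher and 1 was lower. Tnfsf11 (RANKL), the signal by which luminal cells pass on the progesterone response, had signals of 348 and 844 (2.32-fold higher), with 1.15 in its other probe set and 0.97 with the offset at the median. Id4, which holds back luminal differentiation, had 1192 and 2431 (2.02-fold higher). With another scaling it was under 2-fold (0.99 with median centring and 0.98 with quantile normalization), and as the mean of its probe sets it was at 0.68. Myb, a factor of oestrogen-responsive luminal cells, had 926 and 362 (2.45-fold lower), although its other probe sets gave -0.97 and -0.58 and the mean of the probe sets was -0.95. Of 21 measured milk and secretion genes 5 were higher and none was lower, with a median of 0.27. Of these, Lalba (2.8 and 92.5), the protein that makes lactose synthase, and Lpo (4.9 and 59.3), the antibacterial peroxidase of milk, were below the floor on both arrays. Another of the 5 was Glycam1 (13.3 and 477), which is also on the endothelial list and was below the floor in wild type. Bright members differed little, with Csn3, another casein, at 10133 and 9919 and Mfge8, a protein of milk fat globules, at 6860 and 6675, and 5 of the 14 genes compared were negative in sign. Csn2, the main casein of mouse milk, had signals of 231 and 1758, both above the floor, and its other probe set had the same sign. The largest increase of all genes, for the casein Csn1s2a (25.1 and 1653), came from probe sets whose design may match several transcripts. Both probe sets of Csn2 are of such a design too. The other probe sets of Csn1s2a were at background on both arrays, with signals of 9.0 and 6.8 and of 0.9 and 1.7.

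Immune genes differed by cell type. Of 23 measured B and plasma cell genes 4 were higher and none was lower, with a median of 0.28, and their summed signals were 6327 and 9704. Igha, the constant region of IgA, had signals of 445 and 2268 (4.86-fold higher), and its 3 probe sets gave 1.95 to 2.28. Jchain, the protein that joins IgA into dimers, had 126 and 476. Ighm, the constant region of IgM, had 575 and 641. Igha and Jchain were thus higher, and Ighm, chosen after its values were seen, was within 2-fold. The other 2 higher genes, Ighg3 (16.3 and 99.4) and Iglv1 (7.4 and 102), were below the floor on both arrays, as were 16 of the 23 in all. T and NK cell genes were dim, with 32 of 35 under the floor on both arrays, none past 2-fold, and summed signals of 1921 and 2026.

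Macrophage and dendritic cell genes had a median of -0.29, with 2 of 47 measured higher and 2 lower, and summed signals of 90246 and 70498. Gpnmb, a glycoprotein of lipid-laden macrophages, had signals of 516 and 107. Fcgr3, an activating receptor for antibodies, had 2080 and 869 (2.35-fold lower). A pair of further Fc receptors, picked out after their values were seen, lay the same way, Fcgr2b at 2606 and 916 (2.79-fold lower, with -1.73 to -1.09 in 4 probe sets) and Fcgr4 at 1021 and 337 (2.88-fold lower). The 2 higher were Retnla (443 and 1274), a secreted protein of alternatively activated macrophages, and Cd5l (21.5 and 272), a scavenger protein of tissue macrophages. Ido1, which breaks down tryptophan and restrains T cells, had 2164 and 208 (9.33-fold lower), both above the floor. Of 44 measured chemokines and receptors 2 were higher, Ccl2 (99.8 and 247) and Ccl8 (1080 and 2279, at 0.97 with the offset at the median), which both attract monocytes.

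Neutrophil and mast cell genes included 4 lower of 28 measured, namely S100a8, S100a9, Il1r2 and Stfa3, and none higher. Keratinocytes also make the first 2 of these, and S100a8 (741 and 239) and S100a9 (433 and 93.7) lie in the chromosome 3 interval above. The list had a median of -0.17 and summed signals of 17707 and 16782. Most of these sums came from Lcn2 (10169 and 9424), Ltf (2962 and 3261) and Kit (1953 and 3211), all within 2-fold. Lcn2 is also on the list of epithelial defence genes, and Kit is named above as a receptor of luminal progenitors. The sums thus say little about the other members. Whether neutrophils or squamous cells gave the differences of the 4 lower genes was not tested. No gene past 2-fold was found among 47 measured interferon-stimulated genes or 21 measured MHC genes, whose medians were 0.12 and -0.05.

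Most metabolic genes lay within 2-fold. Of 33 measured glycolysis and hypoxia genes 4 were higher and none was lower, with a median of 0.22. Among the 29 compared, 24 were positive and 5 negative in sign. Car9, a carbonic anhydrase of hypoxic tumor cells, had signals of 268 and 646 (2.28-fold higher, 0.90 with the offset at the median), and Egln3, an oxygen sensor, 1171 and 2555 (2.15-fold higher). Ero1a, an oxidase for protein folding that hypoxia induces, had 648 and 1424, and its 3 probe sets gave 1.11 to 1.44, although it was at 0.97 with the offset at the median. Dnajc10, a reductase of the same compartment that was picked out after its values were seen, had 1567 and 3987 (2.52-fold higher), with 1.28 to 1.52 in 3 probe sets. None of 37 measured genes of the unfolded protein response and chaperones on the list, which does not hold Dnajc10, was past 2-fold. Of 20 measured genes of cholesterol synthesis 1 was higher, Idi1 (387 and 1057, 2.62-fold higher), an isomerase in the middle of the pathway, and the median was 0.36. All 14 that reached the floor were positive in sign.

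Among 41 measured genes of glutathione metabolism and the Nrf2 response 1 was higher and 1 was lower. Mgst2, which makes leukotriene C4, had signals of 78.1 and 599. Srxn1, which repairs oxidised peroxiredoxins, had 618 and 150, and its 3 probe sets above the floor gave -1.87 to -1.65. White adipocyte genes, the fat of the normal gland, had 1 higher and 1 lower of 21 measured and summed signals of 10875 and 10942. Pparg, the regulator of fat cells, had 64.2 and 76.0, and Gdf10, a growth factor related to the BMPs, 164 and 18.8, both below the floor on both arrays.

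Among the largest differences of single genes, some belong to none of these groups. Nmu (neuromedin U), a secreted peptide, had signals of 165 and 1093, and Fgfbp1, which releases FGFs from the matrix, 43.5 and 341. Reln, a secreted guidance protein of neurons, had 178 and 1334, both above the floor. The other increases among the 15 largest were Erdr1 (79.5 and 1374), Prp2 (5.8 and 182) and genes named elsewhere. Scgb1a1, a secretoglobin of airway epithelium, had 706 and 4.0. Gem, a small GTPase that restrains calcium channels, had 422 and 72.6. A further 3 genes with both signals above the floor were picked out after their values were seen, as examples of decreases outside the lists. Dclk1, a microtubule-binding kinase, had 4257 and 827 (5.02-fold lower), although its other probe sets above the floor ran from -2.17 to -0.64. Malat1, a long RNA of the nucleus, had 2738 and 558 (4.73-fold lower), with -2.44 to -2.13 in the 3 probe sets above the floor. Adamdec1, a secreted protease, had 1880 and 396.

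The genotype difference in the tumors was set beside that in the glands, which share no array with them. The 2 gland arrays were less alike in their 3′ over 5′ control ratios than the tumor arrays. These ratios were 2.35 (wild type) and 1.61 (knockout) for beta-actin and 1.72 and 0.988 for Gapdh. Whether RNA integrity had a part in the gland differences was not tested. Of 6642 genes that could be compared in both tissues, 82 (1.23%) were higher and 83 (1.25%) lower in the knockout tumor, and 36 (0.542%) were higher and 7 (0.105%) lower in the knockout gland. The 4 genes higher in both were Glycam1, Igkv8-30, Serpinb1a and Spib, which are 4.88% of the tumor's higher genes and 11.1% of the gland's. Spib, a transcription factor of B cells and some epithelial cells, had signals of 27.6 and 216 in the tumors and 151 and 496 in the glands, and Igkv8-30, an immunoglobulin light chain segment, 69.7 and 289 and 964 and 2906. The 1 gene lower in both was Scgb2b27, a secretoglobin, with 323 and 58.8 in the tumors and 219 and 7.3 in the glands. Across these genes, which are not independent, Pearson's r between the 2 differences was 0.019. By list, over all measured genes, the gland median of B and plasma cell genes was 1.21, against 0.28 in the tumors, and that of T and NK cell genes was 0.55, against 0.06. Mitotic and kinetochore genes had gland medians of 0.39 and 0.53, and envelope precursors 0.02, with a gland median of 0.04 over all 12394 genes. Within the B cell list Igha, 4.86-fold higher in the knockout tumor, had 1730 and 1340 in the glands. Ido1 had 4018 and 3146 in the glands, and Zeb1 had 1036 and 1058. Kif23 had 37.0 and 104, below the floor in both glands. Whether any of these differences differ between the tissues was not tested, since each group is 1 array.

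**Figure D5:**
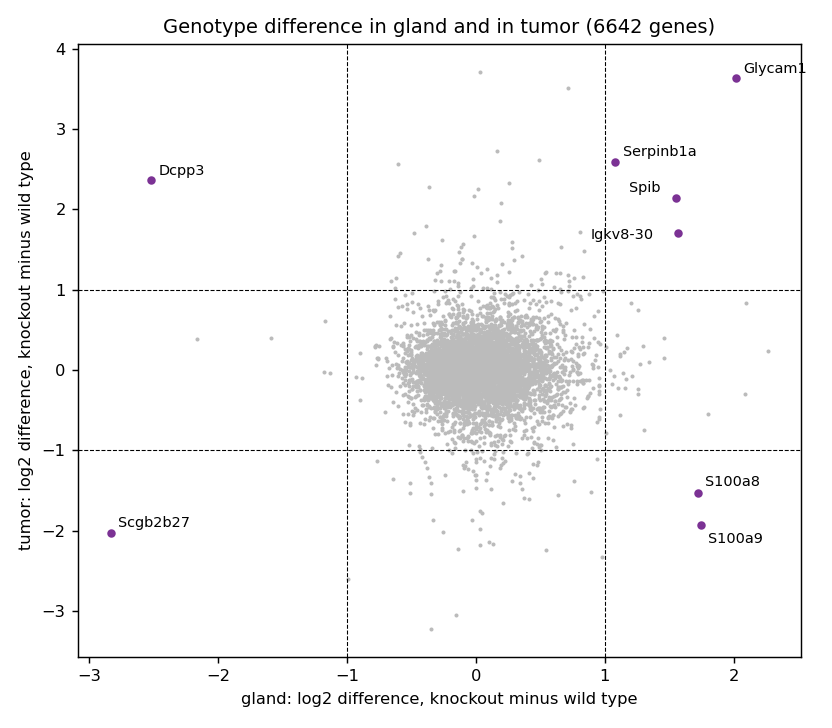
Each point is 1 of 6642 genes compared in both tissues, with its log2 difference (knockout minus wild type) in the gland on the x axis and in the tumor on the y axis; dashed lines mark 2-fold, and purple points are the 8 genes past 2-fold in both. The 2 differences had r 0.019 across genes, and 3 of the 8 named genes, Dcpp3, S100a8 and S100a9, lie in opposite corners.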

How the data were processed

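RNA from 4 pools of 5 mice was measured on 1 mouse Affymetrix array each. The deposited values are intensities, 1 linear signal for each of 22690 probe sets; which software made these was not given in the sources used here. By the values themselves, the authors' arrays each had a mean of 500 after the lowest and highest 2% were left out, so they had been scaled to one another. Signals were used as deposited.

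The platform annotation gave 20393 probe sets 1 gene symbol, 691 several and 1606 none here; several-gene probe sets were left out, and 20364 were matched to RefSeq (GRCm38.p6) by gene identifier. For each gene the probe set brightest on average over the 2 tumor arrays was used. The offset of 27.3 is the lower quartile of all values. No value was summarised by a test. Scripts were tested on simulated data and ran in Python 3.11.15 (pandas 2.3.3, numpy 2.4.6, matplotlib 3.10.9) and R 4.3.3 (limma 3.58.1, for cyclic loess and quantile normalization).

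The 72 gene lists were written from textbook knowledge, with earlier results of these data known. The names were taken from those a rule gives: the 15 largest increases and decreases; per list, up to 8 members past 2-fold and the 3 brightest within it; and fixed markers. Genes named outside it (among them Krt6a, Krt7, Lor, Flg, Tchh, Ppl, Ighm, Fcgr2b, Fcgr4, Dnajc10, Dclk1, Malat1, Adamdec1, genes dim on both tumor arrays and genes named beside the gland) were chosen after their values were seen. Pdgfrb, Thy1 and Cdh5 are also outside the rule and were chosen in the same way. Alternatives covered the offset, scaling, floor and choice of probe set.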

Additional observations from a re-analysis of the deposited data

Results flagged for a closer look

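Genes past 2-fold in both tissues but in opposite directions were 3 of the 6642 compared in both. Dcpp3, a secretory protein of salivary and other glands, differed by 2.37 in the tumors (signals of 91.5 in wild type and 586 in knockout) and by -2.52 in the glands (537 and 71.2). The calcium-binding protein genes S100a8 and S100a9 differed by -1.53 and -1.93 in the tumors and by 1.72 and 1.74 in the glands, where S100a8 had 105 and 409 and S100a9 had 75.8 and 318. Every value rests on 1 array, and the difference between the tissues was not tested.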

How the results depend on the processing

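With the offset raised to the median of all values, 61 genes were higher and 78 lower. With no floor 223 were lower. Over the other settings the 2 counts were within 1.5 times 155 and 142. Of 137 named genes past 2-fold all kept their sign in each setting that gave a value, and 69 stayed past 2-fold in each. Of 27 lists with a median of at least 0.22 in size, 26 kept its sign; the exception was T and NK cell genes, at -0.28 over the 3 that reached the floor, 0.057 with no floor, 0.34 as the mean of probe sets (1 gene) and 0.10 with probe set and floor taken over 4 arrays. The median of all genes moved from -0.01 to 0.02 over the scalings and other settings. Folds of genes at background on 1 array depend on the offset: the median of the 22 envelope precursors that reached the floor was -2.83, -4.29 with an offset of 1, -1.19 with the offset at the median and -0.72 with the floor on the mean (5 genes). No paired analysis was possible because each group is 1 array without a replicate number. With 1 pooled array per group, no difference has a replicate error.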

Other observations

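Imprinted and fetal growth genes gave 4 higher and none lower of 20 measured, with a median of 0.18. Peg3, a zinc finger gene expressed from the paternal copy, had signals of 65.8 (wild-type tumor) and 276 (knockout tumor), and Ndn (necdin), a paternally expressed growth suppressor, 63.7 and 211, with 1.29 in the other probe set above the floor. Msln (26.6 and 310), a mesothelial surface protein, and, dim on both arrays, Sox11 (14.4 and 59.2), a factor of fetal tissue, were the others. The wild-type signal of all 4 was below the floor. In the glands Peg3 had 2439 and 1741 and Ndn had 1742 and 1614, all within 2-fold.

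Markers of other tissues were mostly dim in the tumors. Of 31 measured skeletal muscle genes 25 lay under the floor on both arrays, 5 were higher and none was lower, and the summed signals were 14504 and 13008. Most of these sums came from Tpm1 (5159 and 3765) and Tpm2 (7994 and 6415), so they say little about the dimmer members. Tpm2 is also on the list of basal and myoepithelial genes. Actc1, the cardiac actin, had 17.0 and 480, and Myh4, a myosin of fast fibres, 0.6 and 44. Of 26 measured secretory genes of salivary and lacrimal glands 21 lay under the floor on both arrays, 4 were higher and 2 lower. Their summed signals were 4930 and 4944, most of it from Aqp5 (3512 and 3615). Of 38 measured endothelial and pericyte genes 1 was higher and none lower, with summed signals of 10573 and 9636. The 1 higher was Glycam1, which is also on the list of milk and secretion genes. Cdh5, the cadherin of vessel walls, had 428 and 345, and Rgs5, a pericyte gene, 3061 and 2034, both within 2-fold.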
